A study of Mus musculus with 24 samples.

Results

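The 76 genes described here are named as mitochondrial ribosomal protein genes. They were chosen by name, with earlier results of these data known. The rule took the table entries called Mrpl or Mrps followed by a number and, in some, a letter. They were 76 of 25965 entries, of which 47 were Mrpl genes, named for the large subunit, and 29 were Mrps genes, named for the small subunit. All 76 passed the filter on low values, which left 13296 genes for testing, and the lowest count of any of them in any library was 79 reads. The genes lay on 17 chromosomes, with 10 on chromosome 11 and 0 on the X chromosome.

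Mitochondria carry their own small genome and translate its messages on their own ribosomes. The ribosomal RNAs come from the mitochondrial genome, whereas every protein of these ribosomes is encoded in the nucleus, made in the cytosol and imported, so the amounts of many unlinked nuclear transcripts have to meet in 1 particle. The particle makes only core subunits of the oxidative phosphorylation complexes, and pluripotent stem cells are known to rely more on glycolysis than many differentiated cells do. The names follow the bacterial numbering only in part: Mrps18a and Mrps30 encode proteins that sit in the large subunit, and Mrps36 has since been assigned to the 2-oxoglutarate dehydrogenase complex.

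RNA-seq was performed on male C57/Bl6 mouse embryonic stem cells (mESCs) that had been expanded in 2i and induced to differentiate in DME HiHi medium. Cells received an shRNA by viral transduction on day 2, were selected with puromycin from day 3 and were harvested on days 4, 5, 6 and 7, so the Nons controls went through the same transduction and selection. The knockdown groups were Smarcc1 (hairpins Smarcc1.6 and Smarcc1.7) and Smarca4 (hairpins Smarca4.4 and Smarca4.6), which encode a core subunit and a catalytic ATPase of the BAF chromatin remodelling complex, and the control was a nonsilencing shRNA, Nons1. Nons1 and each of the 4 hairpins gave 1 library per day, 20 in all, and the 4 days of each are called a series below. Libraries labelled Nons2 were not analysed here. The labels do not say whether libraries came from separate cultures or lines, so every p-value below measures only the spread between hairpin libraries of 1 gene and day, and comparisons with Nons rest on the same 4 Nons libraries.

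Libraries held 6829596 to 27472885 reads, and the smallest was Smarca4.4 day 5 (the next smallest held 15717152). Smarcc1 was at 23.7 to 60.1% of same-day Nons in 8 of 8 Smarcc1 libraries, and Smarca4 at 21.6 to 55.3% in 8 of 8 Smarca4 libraries. The mESC label was checked against its markers: the summed level of 11 pluripotency and early epiblast genes had a median over the 5 libraries of 4205 rpm (reads relative to the library's total) on day 4, 4039 on day 5, 3213 on day 6 and 1346 on day 7, and all 11 were in the table. Between days 4 and 7 the median summed level of 5 trophoblast markers went from 11.4 to 121 rpm, mostly through Krt7 (1.37 to 93.9 rpm), with Cdx2 and Elf5 under 0.5 rpm on all days. That of 6 primitive endoderm markers went from 4.19 to 35.5 rpm, mostly through Dab2 (1.73 to 27.6 rpm), and that of 5 fibroblast markers from 6.92 to 50.5 rpm, mostly through Col1a1 and Col1a2, with Thy1 at 4.67 and 3.20 rpm. The summed level of 4 neural markers went from 74.8 to 31.99 rpm, mostly through Tubb3 (57.6 to 15.15 rpm). Sox1 was at 5.89 and 7.30 rpm and Pax6 at 9.28 and 8.42 rpm. The sum of 5 mesoderm markers went from 5.44 to 1.88 rpm through Kdr (4.44 to 0.27 rpm), while Tbx6 went from 0.07 to 0.91 rpm. These changes in marker level ran with every comparison of days below, and their part in those results was not tested. In such bulk libraries fewer cells of a type and less RNA per cell cannot be told apart. The 13 protein genes of the mitochondrial genome were listed with 0 reads in all libraries, so the products translated by these ribosomes were not measured.

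Most of these transcripts were lower on day 7 than on day 4, and their median was higher on day 5 than on day 4 in 4 series and almost level in Smarcc1.7. Between days 4 and 7, 39 of the 76 genes fell and 6 rose at a Benjamini-Hochberg adjusted p under 0.05 (limma, all 20 libraries, the 3 groups weighted equally), and the median log2 difference was -0.47. Among all genes tested 28.8% fell and 35.7% rose, with a median of 0.08, so the members held a larger share of falls and a smaller share of rises than the table as a whole. In 50 members day 7 was below day 4 in all 5 series, against 34.2% of all genes tested. Both subunits contributed: 25 of 47 Mrpl genes fell (median -0.50) and 14 of 29 Mrps genes fell (median -0.45). Centring each library on its median gene moved the median of all genes from 0.08 to -0.09, and 45 members then fell and 2 rose.

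**Figure D1:**
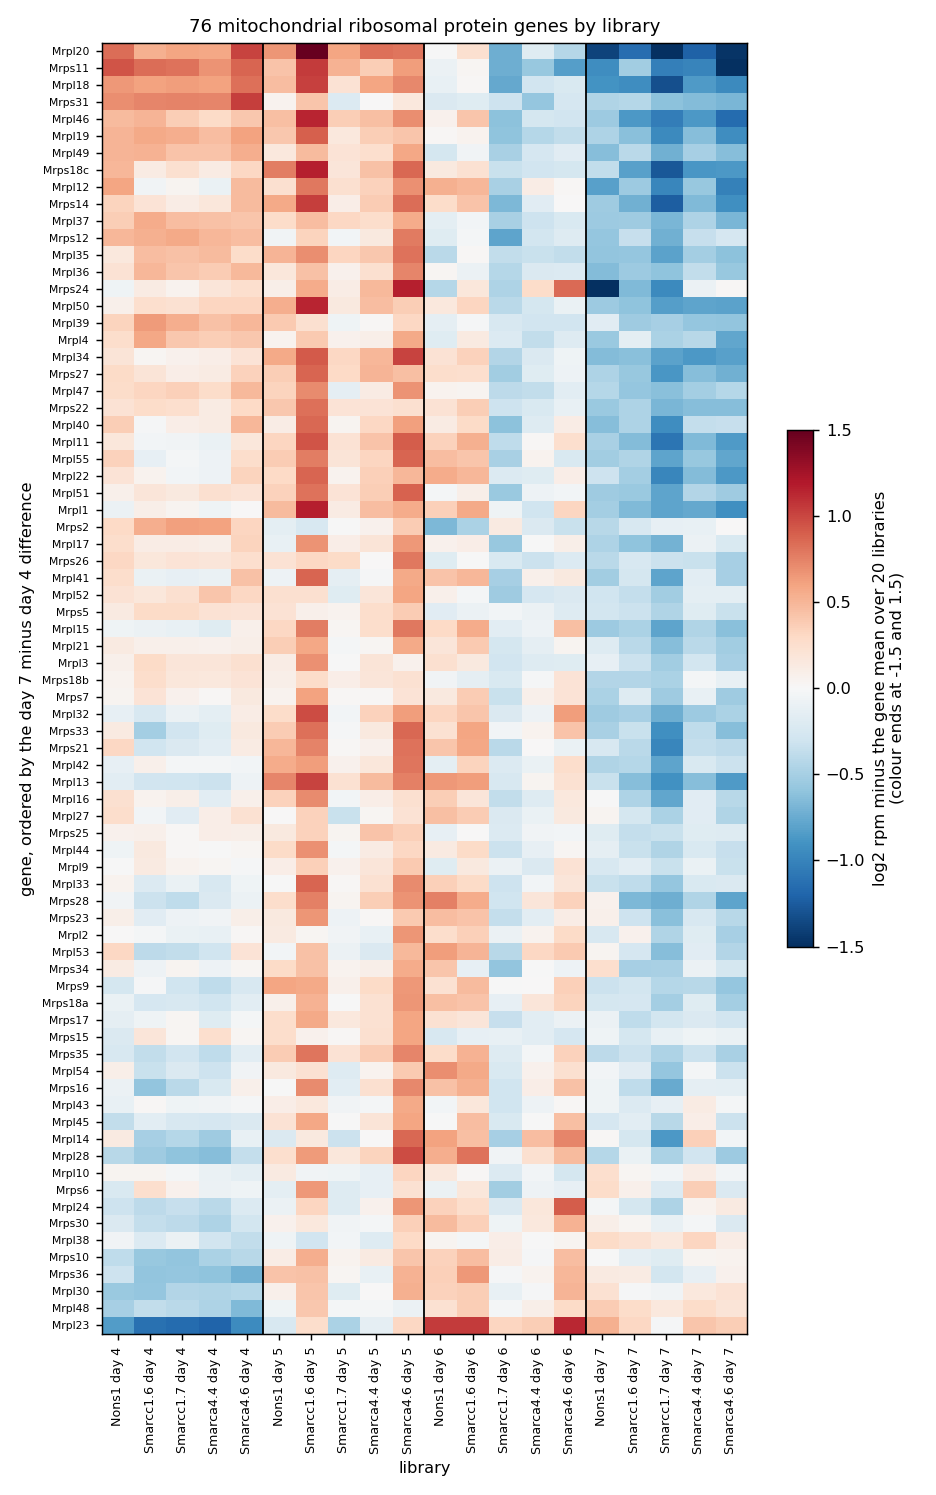
Level of each of the 76 genes (rows, ordered by the day 7 minus day 4 difference) in each of the 20 libraries (columns, in blocks of days 4, 5, 6 and 7), as log2 rpm minus the gene's mean over all libraries. Most rows turn from red or pale on days 4 and 5 to blue on day 7, and the rows at the bottom, led by Mrpl23, run the other way.

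The decline was not even over the 4 days. From day 4 to day 5, 17 members rose (22.4%) and 2 fell (2.63%), with a median of 0.23. Among all genes 19.5% rose and 19.2% fell, so the share of rises was near that of all genes and the share of falls smaller. In all 5 series 36 members were higher on day 5, against 23.5% of all genes. The largest rises, named after their values were seen, were in Mrpl28 and Mrpl23, both by 0.93, and the 2 genes that fell were Mrps31 (-0.70) and Mrps2 (-0.46). From day 5 to day 6, 19 members fell and only Mrpl23 rose (median -0.28), where 15.3% of all genes fell and 17.0% rose. From day 6 to day 7, 27 members fell and 0 rose (median -0.45), where 10.6% of all genes fell and 16.9% rose, and 59 members were lower on day 7 in all 5 series, against 19.7% of all genes.

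These counts depended on the series included, and without any single hairpin series 4 residual degrees of freedom were left in place of 8. They were lower in each comparison of days without Smarca4.4, and lowest without the Smarca4.6 series. Without it, 7 members were called between days 4 and 5 (limma, against 19), where the share of all genes called went from 38.7 to 23.9%. Between days 5 and 6, 4 members were called (against 20), where the share of all genes went from 32.3 to 21.6%. Between days 6 and 7, 0 members were called (against 27), where the share of all genes went from 27.5 to 7.98%. Between days 4 and 7, 32 members were called (against 45), where the share of all genes went from 64.5 to 57.4%. Under median-gene centring 49 members fell between days 6 and 7. The share of all genes called in either direction was then 27.7%, against 27.5% without centring.

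**Figure D2:**
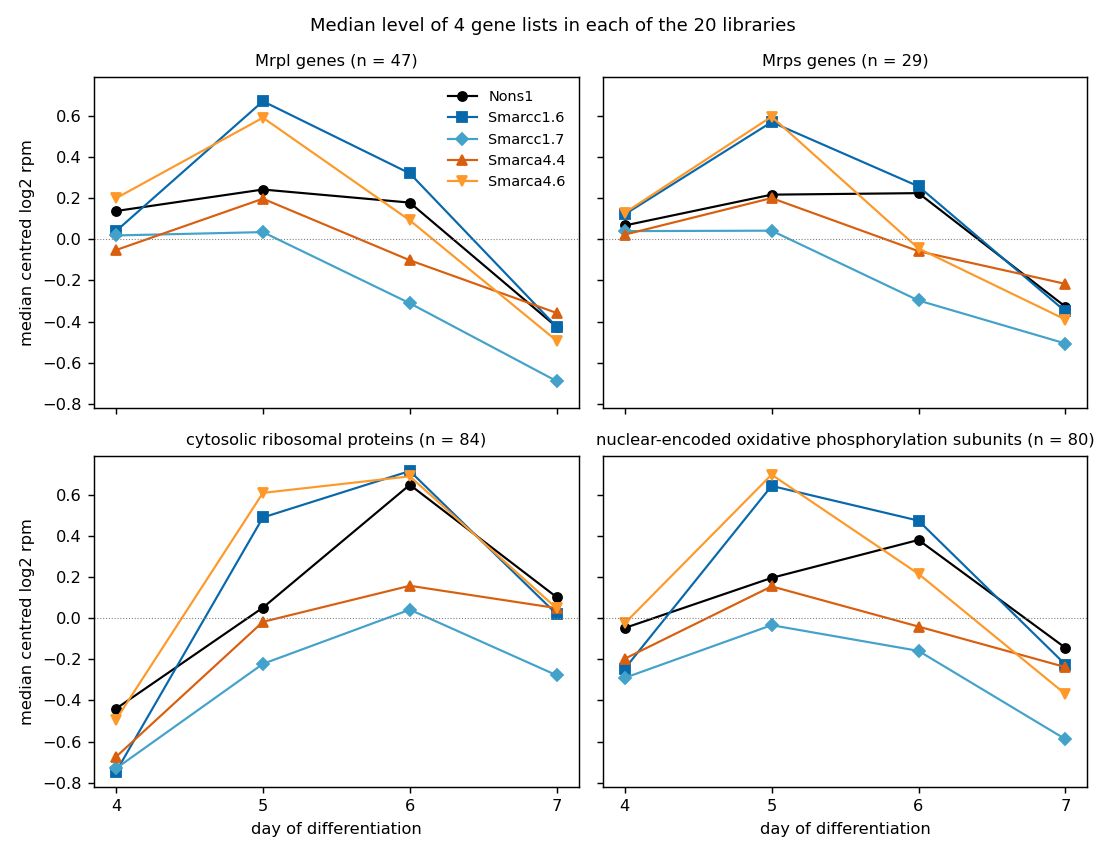
Median over a gene list of log2 rpm, each gene centred on its mean over the 20 libraries, by day of differentiation (x axis, days) for the Nons series and each of the 4 hairpin series. The Mrpl and Mrps panels have the same shape, with day 7 lowest in every series, whereas cytosolic ribosomal proteins are lowest on day 4 in every series.

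By library, the median of the 76 centred values was 0.06 on day 4 (SD 0.07, n = 5 libraries), 0.34 on day 5 (SD 0.25), 0.04 on day 6 (SD 0.24) and -0.42 on day 7 (SD 0.13). The day 4 libraries lay between -0.04 and 0.15 and the day 7 libraries between -0.63 and -0.28, so these days did not overlap. Days 5 and 6 spread more widely, from 0.04 to 0.62 and from -0.30 to 0.31, and they overlapped each other and day 4. Day 6 also overlapped day 7, with Smarcc1.7 at -0.30 on day 6 and Smarca4.4 at -0.28 on day 7. In Smarcc1.7 the median was 0.03 on day 4 and 0.04 on day 5. The Nons series was at 0.11, 0.24, 0.22 and -0.35 on the 4 days, with its drop between days 6 and 7.

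The largest fall was in Mrpl20, whose bacterial homologue binds ribosomal RNA early in assembly of the large subunit. On day 4 its level was 126 rpm in Nons1, 102 in Smarcc1.6, 106 in Smarcc1.7, 105 in Smarca4.4 and 143 in Smarca4.6. On day 7 it was 26.8 rpm in Nons1, 32.0 in Smarcc1.6, 22.0 in Smarcc1.7, 30.5 in Smarca4.4 and 25.5 in Smarca4.6. All day 7 libraries were below all day 4 libraries, and the fitted difference was -2.11 on the log2 scale (SE 0.23, adjusted p = 3.89e-06, limma).

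Mrps11 and Mrpl46 start close to each other on chromosome 7 and both were among the 6 largest falls. Mrps11 encodes a protein of the small subunit platform, and Mrpl46 a mitochondria-specific protein of the central protuberance of the large subunit. The level of Mrps11 on day 4 was 40.003 rpm in Nons1, 37.2 in Smarcc1.6, 36.7 in Smarcc1.7, 33.3 in Smarca4.4 and 38.3 in Smarca4.6. Its day 7 level was 10.98 rpm in Nons1, 14.6 in Smarcc1.6, 10.3 in Smarcc1.7, 10.5 in Smarca4.4 and 7.41 in Smarca4.6. Mrpl46 was between 54.5 and 63.4 rpm on day 4 and between 20.03 and 30.6 rpm on day 7. Neither gene had overlapping values on these days, and the fitted differences were -1.83 for Mrps11 (SE 0.20, adjusted p = 3.72e-06) and -1.25 for Mrpl46 (SE 0.20, adjusted p = 0.000150, limma). Over the 20 libraries the log2 levels of the pair had r = 0.93, as a description. Their RefSeq start sites lay 42 bases apart on opposite strands. Their table entries overlapped by 413 bases, and without stated strand reads in the overlap cannot be told apart.

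A stretch of 150 bases around both start sites is shown because it holds the starts of both genes, from the RefSeq GRCm38.p6 promoter window of Mrps11 at chr7:78783021-78783170, plus strand. Capitals mark a match to the YY1 core AAGATGGCG on the opposite strand, which lies outside the 42 bases between the starts and on the transcribed side of the Mrpl46 start.
Mrps11 and Mrpl46: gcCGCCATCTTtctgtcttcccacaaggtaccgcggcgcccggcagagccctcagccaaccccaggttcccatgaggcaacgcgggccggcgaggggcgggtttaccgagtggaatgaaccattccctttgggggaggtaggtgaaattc

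Among the other large falls, Mrpl18, Mrpl19 and Mrps31 also had no overlap between days 4 and 7. Mrpl18, a protein of the central protuberance, was at 128 to 149 rpm on day 4 and 33.8 to 46.8 rpm on day 7 (log2 difference -1.63, SE 0.19). Mrps31, a small subunit protein with no bacterial homologue, went from 83.6 to 106 rpm down to 32.1 to 37.8 rpm (log2 difference -1.32, SE 0.14), and unlike most members it was already lower on day 5. Mrpl19, at the subunit interface, was at 95.9 to 106 rpm on day 4 and 35.9 to 50.2 rpm on day 7 (log2 difference -1.22, SE 0.17). The Mrpl18 entry overlaps Tcp1 and the Mrpl19 entry overlaps AW146020, each on the other strand.

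The 6 members that rose were Mrpl23, Mrpl48, Mrpl30, Mrps36, Mrps10 and Mrpl38. Mrpl23, a protein at the exit of the peptide tunnel, was at 23.4 rpm in Nons1, 19.3 in Smarcc1.6, 18.8 in Smarcc1.7, 18.2 in Smarca4.4 and 21.7 in Smarca4.6 on day 4. On day 6 the same series were at 86.3, 86.5, 52.0, 53.9 and 91.2 rpm, and on day 7 at 60.5, 52.0, 41.3, 55.9 and 53.9 rpm. Every later library was thus above the highest day 4 library, and the day 7 difference was 1.37 (SE 0.21, adjusted p = 9.32e-05, limma). Mrpl48 rose by 0.76 (SE 0.13), from between 34.3 and 42.2 rpm to between 60.5 and 70.7 rpm. Mrpl30 (0.63), Mrps36 (0.53), Mrps10 (0.43) and Mrpl38 (0.41) were higher on day 7 in 5 of 5 series, but none of these 4 passed after median-gene centring (0.46, 0.35, 0.25 and 0.23). Mrps36 did not pass after quantile normalization (0.17) or thinning to the smallest library (0.45) either. Leaving out a series also ended the call of Mrpl38 (0.38 without Smarcc1.6), Mrps10 (0.42 without Smarca4.4, 0.44 without Smarca4.6) and Mrps36 (0.58 without Smarca4.4, 0.48 without Smarca4.6, 0.46 without Smarcc1.6). Mrpl48 and Mrpl38 encode proteins of the central protuberance, as do Mrpl46 and Mrpl18, so members of that single feature moved in both directions.

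Mrpl23 lies beside an imprinted cluster on chromosome 7, at chr7:142532799-142540747, with H19 and Igf2 as the nearest tested genes on 1 side. Between days 4 and 7 H19, a long noncoding RNA, rose by 4.28 on the log2 scale (SE 0.14, adjusted p = 1.99e-10), from a median of 72.2 to 1376 rpm. Igf2, a growth factor gene, rose by 3.64 (SE 0.23, adjusted p = 4.36e-08, limma). In Smarca4 knockdown against Nons, Igf2 was higher by 0.83 (SE 0.21, adjusted p = 0.0377, limma). There H19 (0.07) and Mrpl23 (-0.09) did not pass. The neighbours were looked up after the values of Mrpl23 were seen. Mrpl20 had a different neighbourhood: the adjacent gene Ccnl2 rose by 0.89 (SE 0.12, adjusted p = 3.77e-05) while Mrpl20 fell.

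**Figure D3:**
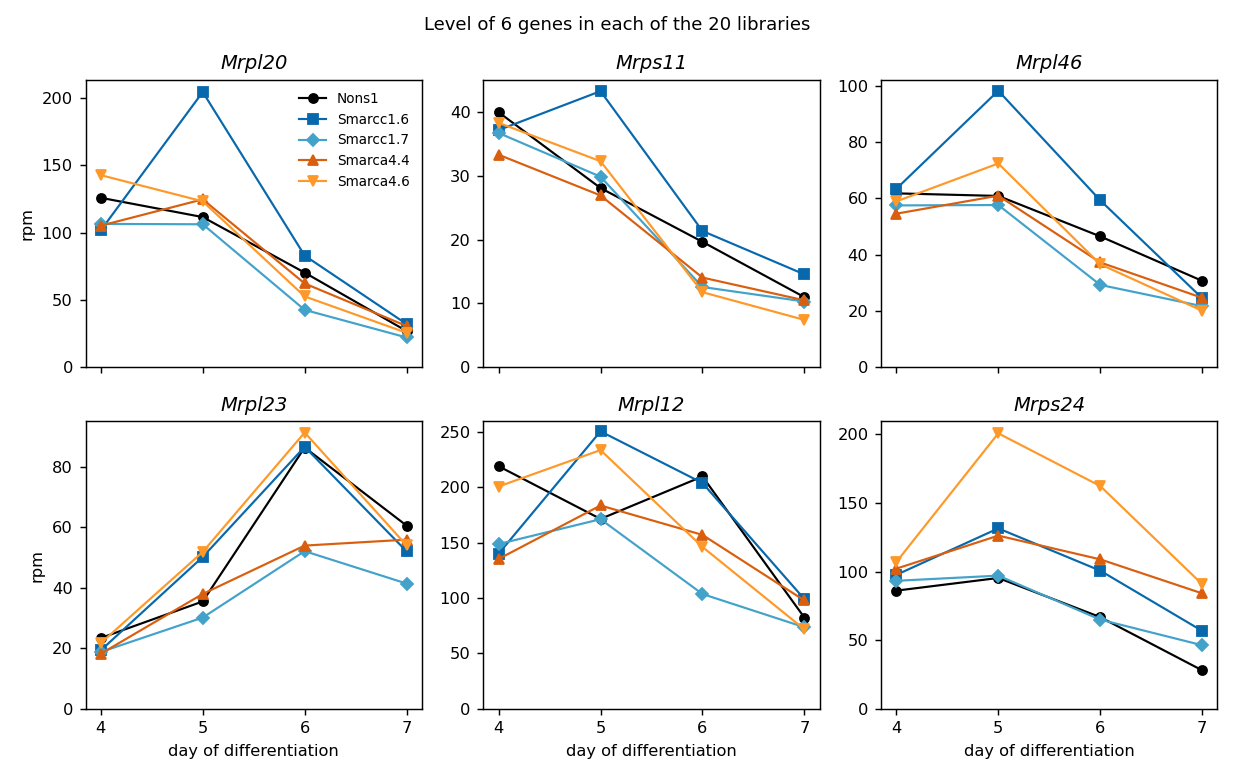
Level in rpm (y axis, linear from 0) by day of differentiation for 6 genes in the Nons series and the 4 hairpin series, 1 point per library. Mrpl20, Mrps11, Mrpl46 and Mrpl12 end below their day 4 levels in every series, Mrpl23 ends above it, and Mrps24 stays highest in both Smarca4 series on days 6 and 7.

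Of 16 members listed for their known roles, 11 fell, 0 rose and 5 did not pass. Among all genes tested 28.8% fell and 35.7% rose. Mrpl12, which forms the stalk that recruits translation factors and also binds the mitochondrial RNA polymerase, was at 135 to 219 rpm on day 4 and 71.8 to 99.1 rpm on day 7 (log2 difference -1.05, SE 0.21, adjusted p = 0.000814). Its stalk neighbours differed: Mrpl11 fell by 0.76 (SE 0.21), whereas Mrpl10, which anchors the stalk, had a difference of 0.12 (SE 0.12) and did not pass. Mrps12, at the decoding centre, fell by 0.98 (SE 0.18), and Mrps2 and Mrps5 fell by 0.66 (SE 0.14) and 0.52 (SE 0.10). Mrpl3, near the peptidyl transferase centre, fell by 0.48 (SE 0.15) and Mrpl15 by 0.50 (SE 0.20), the latter with an adjusted p of 0.0436 (limma). These were among the less secure calls: Mrpl11 did not pass without Smarca4.6 (-0.68), Mrpl3 without Smarca4.4 (-0.53) or Smarca4.6 (-0.44), and Mrpl15 without Nons1 (-0.51), Smarca4.4 (-0.57), Smarca4.6 (-0.43) or Smarcc1.7 (-0.45), or after quantile normalization (-0.34). The mitochondria-specific subunits Mrps22 and Mrps27 fell by 0.82 (SE 0.16) and 0.84 (SE 0.17). Mrpl44 (-0.28, SE 0.16), Mrps34 (-0.16, SE 0.14) and Mrps16 (-0.04, SE 0.21) did not pass. The 3 paralogues of bacterial S18 differed in size of effect: Mrps18c fell by 1.06 (SE 0.20), Mrps18b by 0.48 (SE 0.11), and Mrps18a, whose product sits in the large subunit, had -0.14 (SE 0.16) and did not pass.

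**Figure D4:**
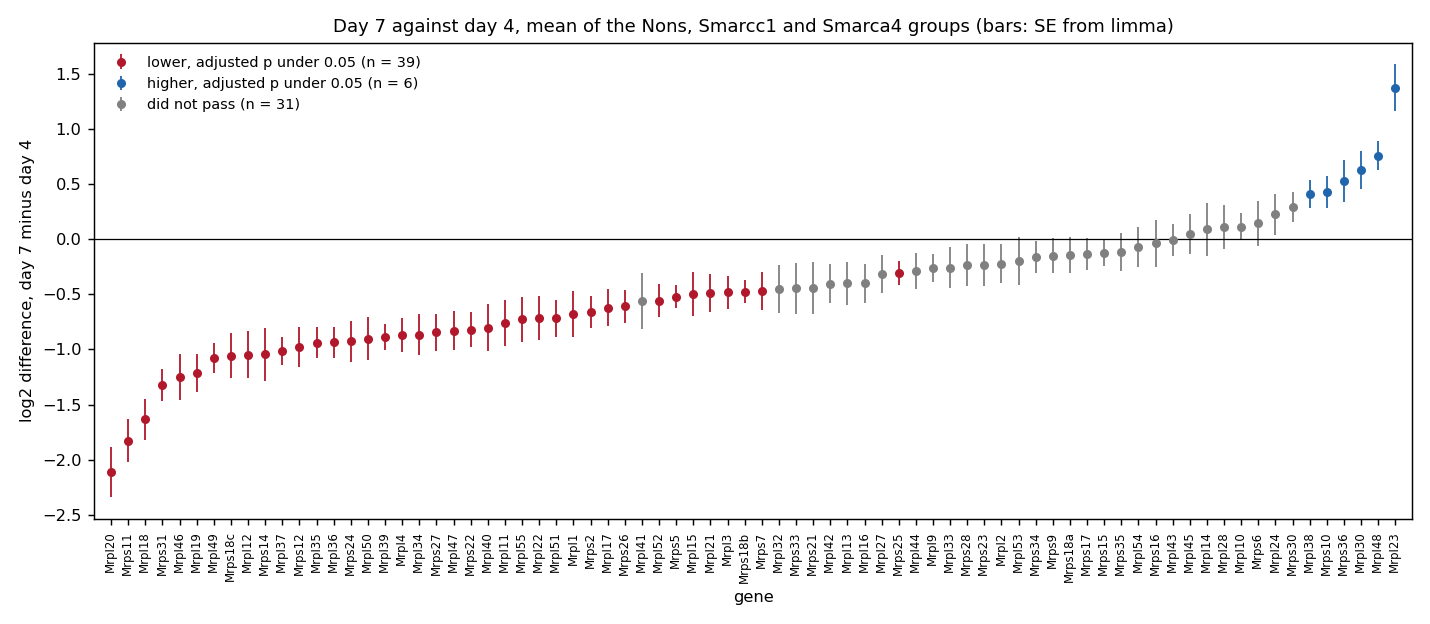
Log2 difference of day 7 minus day 4 for each of the 76 genes (x axis, ordered by size), as the mean of the Nons, Smarcc1 and Smarca4 groups, with SE bars from limma and colours for an adjusted p under 0.05. The 39 genes that fell reach down to -2.11, the 6 that rose reach 1.37, and the grey genes did not pass.

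Within the Nons series the range over the 4 days was smallest for Mrpl43 (0.21 on the log2 scale), Mrpl10 (0.21) and Mrps34 (0.28), and largest for Mrpl20 (2.23), Mrpl23 (1.88) and Mrps11 (1.87). Mrpl43 was at 41.9, 48.3, 43.8 and 43.3 rpm on days 4 to 7 in Nons1, and its day 7 difference over all groups was 0.00 (SE 0.15).

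The members moved together over the libraries. The median correlation of a member with the mean of the other members over the 20 libraries was r = 0.83, with 0.86 for Mrpl and 0.79 for Mrps genes, and 42 of 76 members were above 0.8. The 20 points share hairpin series and days and are not independent. Only Mrpl38 (-0.47), Mrpl48 (-0.17) and Mrpl23 (-0.07), all among the genes that rose, were below 0. The median correlation with the member mean was 0.73 for nuclear-encoded oxidative phosphorylation subunits, 0.32 for cytosolic ribosomal proteins and -0.19 for all genes tested.

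The promoters of the members were read because so many moved together. RefSeq windows from 250 bases before to 50 after the start site were at hand for 67 of the 76 genes and for 9228 of the genes tested, and both strands were searched for 4 short motifs. A window can hold more than 1 motif, and a match is a run of letters, not evidence of binding. The ETS core CCGGAAG was in 34.3% of member windows and 18.3% of all tested windows, the NRF1 core GCGCANGCG in 22.4% and 13.9%, the YY1 core AAGATGGCG in 11.9% and 3.15%, and the E-box CACGTG in 7.46% and 10.45%. At least 1 of the first 3 was in 58.2% of member windows, against 31.3% of tested windows. Of the 36 genes with a window that fell between days 4 and 7, the ETS core was in 14, the NRF1 core in 6, the YY1 core in 6 and the E-box in 4. Of the 31 other members with a window, the ETS core was in 9, the NRF1 core in 9, the YY1 core in 2 and the E-box in 1.

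A stretch of 150 bases is shown for 4 members that differed in behaviour, in gene orientation from GRCm38.p6, with the motif matches in capitals. Mrpl20 (chr4:155802768-155802917, plus strand) fell most and holds an E-box, though its RefSeq start lies 658 bases from the start of the table entry. Mrpl12 (chr11:120484527-120484676, plus strand) fell and holds an NRF1 core, Mrpl30 (chr1:37890367-37890516, plus strand) rose and holds a pair of NRF1 cores, and Mrpl43 (chr19:45006403-45006552, minus strand) changed least in Nons and holds a pair of ETS cores.
Mrpl20: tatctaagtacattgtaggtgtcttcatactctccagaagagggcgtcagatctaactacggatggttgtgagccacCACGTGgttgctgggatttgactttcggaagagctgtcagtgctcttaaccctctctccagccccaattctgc
Mrpl12: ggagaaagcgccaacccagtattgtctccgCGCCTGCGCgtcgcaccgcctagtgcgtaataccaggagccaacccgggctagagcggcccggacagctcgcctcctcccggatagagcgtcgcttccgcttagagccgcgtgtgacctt
Mrpl30: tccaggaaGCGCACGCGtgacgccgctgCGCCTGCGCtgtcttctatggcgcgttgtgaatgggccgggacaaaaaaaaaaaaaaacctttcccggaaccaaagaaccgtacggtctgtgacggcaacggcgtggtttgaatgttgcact
Mrpl43: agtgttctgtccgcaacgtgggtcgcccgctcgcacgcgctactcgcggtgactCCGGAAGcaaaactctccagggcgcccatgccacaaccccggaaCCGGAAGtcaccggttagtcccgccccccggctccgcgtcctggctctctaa
A match was thus found in a member that fell, in one that rose and in one that did not pass.

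The comparison of knockdown with Nons asks whether loss of BAF subunits changes these genes in male cells, which do not inactivate an X chromosome. Averaged over the 4 days, 0 of 76 members passed for Smarcc1 knockdown (limma, 3 at an unadjusted p under 0.05) and 1 for Smarca4 knockdown, where 10.6% and 6.71% of all genes did. The median differences were -0.07 and -0.03, against 0.06 for all genes in both comparisons. limma-voom on the recovered reads gave the same counts of 0 and 1. With each series taken as a random effect these were also 0 and 1, but the shares of all genes were lower, at 4.55% and 1.94%. The single estimates lay between -0.43 and 0.39 for Smarcc1 and between -0.33 and 0.91 for Smarca4. The median SE was 0.16, and for Smarcc1 even the estimates of -0.43 and 0.39 did not pass. A difference in a single gene well above the SE could therefore be missed. Between the knockdowns, 0 members passed (limma, 3 at an unadjusted p under 0.05, median -0.05), where 4.09% of all genes did. That share was 0.79% with each series as a random effect, again with 0 members. The change from day 4 to day 7 differed from that in Nons for 0 members in either knockdown (limma, 0 at an unadjusted p under 0.05 for Smarcc1 and 1, Mrps24, for Smarca4), where 0.459% of all genes passed for Smarcc1 and 0.0827% for Smarca4.

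The member that passed was Mrps24, a small subunit protein gene. In Nons1 its level was 86.1, 95.4, 66.8 and 28.0 rpm on days 4 to 7. In Smarca4.4 it was 102, 126, 109 and 84.1 rpm, and in Smarca4.6 it was 107, 201, 162 and 90.8 rpm. All 8 Smarca4 libraries were above the Nons library of their day, and the mean difference was 0.91 (SE 0.17, adjusted p = 0.00702, limma). Without Smarca4.6 the difference was 0.74 and no longer passed (adjusted p = 0.109). In Smarcc1 knockdown the mean difference was 0.39 (SE 0.17, adjusted p = 0.200), and the difference between the knockdowns was -0.53 (SE 0.14, adjusted p = 0.0549, limma), so a difference between them was not shown.

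The Mrps24 entry overlaps that of Urgcp on the same strand, from chr11:5713417 to 5715680. Urgcp was also higher in Smarca4 knockdown, by 0.98 (SE 0.12, adjusted p = 0.000611, limma). Its median over the 5 day 4 libraries was 14.6 rpm, and that of Mrps24 was 97.6 rpm. The RefSeq start of Mrps24 lies 7979 bases from the start of its table entry, and the shared stretch is upstream of that RefSeq start. Reads in the shared stretch can be assigned to either gene, and their part in the Mrps24 value was not tested.

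Mrps34, a mitochondria-specific small subunit protein gene, had the smallest adjusted p in Smarcc1 knockdown, at -0.43 (SE 0.13, adjusted p = 0.0601, limma). On days 4 to 7 it was at 58.2, 64.7, 70.9 and 63.6 rpm in Nons1, at 50.4, 72.3, 48.9 and 37.7 rpm in Smarcc1.6 and at 54.7, 55.2, 35.2 and 38.1 rpm in Smarcc1.7. It was below Nons in 7 of 8 Smarcc1 libraries, with both hairpins low on days 6 and 7, and also in 7 of 8 Smarca4 libraries. The Mrps34 entry overlaps those of Mapk8ip3 and Nme3, 1 of them on the other strand. The next members by unadjusted p were Mrps24, Mrps28 (-0.39), Mrpl54 (-0.34) and Mrps2 (0.26), of which none passed. Without Smarcc1.6, Mrps28 was at -0.60 and passed (adjusted p = 0.0396, limma). In Smarca4 knockdown Mrps2 (0.32), Mrps18b (0.19), Mrps34 (-0.25) and Mrps18c (-0.33) followed Mrps24 and did not pass. Between the knockdowns Mrpl14 (-0.50), Mrpl24 (-0.34), Mrps18b (-0.16) and Mrps11 (0.29) followed it and did not pass either.

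**Figure D5:**
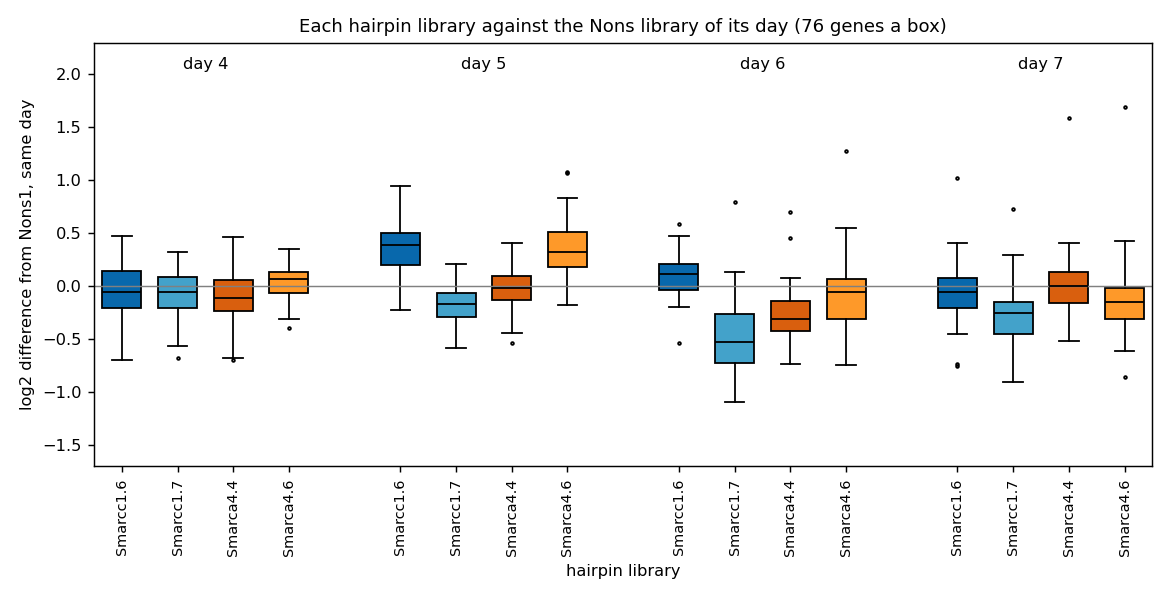
Log2 difference of each of the 16 hairpin libraries from the Nons library of the same day, with 1 box over the 76 genes per library (line: median, box: quartiles, whiskers: 1.5 times the box height, dots: genes beyond). On day 5 the boxes of Smarcc1.6 and Smarca4.6 lie above 0, and on day 6 those of Smarcc1.7 and Smarca4.4 lie below it, so hairpins of 1 gene part from each other.

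Hairpins against the same gene parted from each other on days 5 and 6. For Smarcc1.6 the median difference of the 76 genes from same-day Nons was -0.05, 0.39, 0.11 and -0.06 on days 4 to 7, and for Smarcc1.7 it was -0.05, -0.16, -0.53 and -0.26. On day 5, 68 of 76 members were above Nons in Smarcc1.6 and 63 were below it in Smarcc1.7. For Smarca4.4 the median was -0.11, -0.02, -0.31 and 0.00, and for Smarca4.6 it was 0.06, 0.32, -0.05 and -0.15. Other ribosomal and mitochondrial lists parted in the same libraries: on day 6 the median difference of cytosolic ribosomal proteins was 0.07 in Smarcc1.6 and -0.60 in Smarcc1.7, and that of oxidative phosphorylation subunits was 0.08 and -0.58. The median of all tested genes in these libraries was 0.06 and 0.23. The pooled SD between hairpins of the member median was 0.25 for a single library. The differences of the knockdowns from Nons are means over several libraries, so this SD does not measure their error.

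Other parts of the mitochondrial translation machinery were compared through lists of known genes, none of which had a call in a knockdown comparison except the 2 lists of cytosolic ribosomal and oxidative phosphorylation genes. Among 7 ribosomal subunits with other names, Ptcd3 (-1.58) and Gadd45gip1 (-0.48) fell between days 4 and 7, a share near the 28.8% of all genes. Dap3 (0.53), an apoptosis-linked small subunit gene, rose. Of 20 assembly factors 10 fell, against 28.8% of all genes tested, led by the rRNA methyltransferase gene Ftsj2 (-1.78), the GTPase gene Gtpbp5 (-1.14), the rRNA methyltransferase gene Rnmtl1 (-1.12) and Mettl17 (-1.03), and only Mtg1 rose (0.47). Of 13 translation factors 4 fell, a share near that of all genes, and these were Lrpprc (-1.23), a partner of mitochondrial mRNAs, and the elongation or recycling factor genes Tufm (-1.05), Gfm1 (-0.74) and Gfm2 (-0.49), while Guf1 rose (0.33). Of 19 mitochondrial aminoacyl-tRNA synthetases 8 fell, where 28.8% of all genes did, with Mars2 (-1.65), Cars2 (-1.38), Aars2 (-1.20) and Yars2 (-1.13) at the head. In the same list Wars2 (0.83), Iars2 (0.80) and Nars2 (0.47) rose, where 35.7% of all genes did. All 7 genes of mitochondrial DNA transcription and copying passed, where 64.5% of all genes did in either direction. The DNA polymerase subunits Polg (1.41) and Polg2 (0.81) rose, and Tfb2m (-0.82), Polrmt (-0.72), Peo1 (-0.69), Tfam (-0.60) and Ssbp1 (-0.53) fell. Mtg1, Guf1, Wars2, Iars2, Nars2, Peo1, Tfam and Ssbp1 were named after their values were seen. The calls of Dap3 (0.46 without Smarca4.4, 0.48 without Smarcc1.6), Gadd45gip1 (-0.40 without Smarca4.6, -0.44 without Smarcc1.7) and Polrmt (-0.65 without Smarca4.4, -0.79 without Smarca4.6) were lost when a series was left out. Dap3 (0.36) also did not pass after median-gene centring, nor Polg2 (0.42) after quantile normalization.

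The cytosolic ribosome went the other way between days 4 and 7. Of 84 cytosolic ribosomal protein genes 52 rose and 5 fell, where 35.7% of all genes rose and 28.8% fell, with a median of 0.61, against -0.47 for the mitochondrial members, and the difference between the lists was not tested. The 5 that fell, named after their values were seen, were Rpl10l, Rpl39l, Rpl3l, Rps4y2 and Rpl7l1. Among 80 oxidative phosphorylation subunits 11 rose and 22 fell, the latter a share near that of all genes, with a median of -0.06. All 3 lists had a positive median between days 4 and 5 (0.23 for the members, 0.70 for cytosolic ribosomal proteins and 0.43 for oxidative phosphorylation subunits) and a negative one between days 6 and 7 (-0.45, -0.51 and -0.48).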

How the data were processed

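Members were the entries whose name is Mrpl or Mrps, a number and at most a letter a, b or c. Members and lists were chosen with earlier results of these data known. The deposited values are log2 rpm (reads per 1 000 000 counted) that the authors made in SeqMonk, after trimming with trim_galore and alignment to mm10 by tophat or HISAT2. The annotation release and strand setting are not given in the sources used here. The lowest value of a library equals 0.9 of a read, which gave whole reads (within 0.05 of a whole number for 100% of values under 1000 reads) and library totals. Members had at least 79 reads in every library.

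Groups followed the titles, since a genotype label calls all knockdowns Smarcc. The 4 libraries labelled Nons2 were not analysed here. limma 3.58.1 (R 4.3.3, trend, Benjamini-Hochberg, threshold 0.05) was run on the log2 values of 13296 genes with a mean of at least 0 log2 rpm, with no pseudocount beyond the authors' own floor, 12 means of group and day and 8 residual degrees of freedom, all from hairpin pairs. The script was tested on simulated data. Named members were the 6 largest rises and falls past the threshold per knockdown comparison and for day 7 against day 4, the 5 smallest p-values where fewer than 5 passed, 16 members with known roles, the 3 largest and 3 smallest ranges over Nons days, and from other lists at most 4 per comparison. Promoters came from RefSeq GRCm38.p6. Correlations are Pearson coefficients. In all, 15 alternatives were run: filters, pseudocount, scaling, recovered reads with limma-voom, thinning, an additive day term, a replicate block and left-out libraries.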

Additional observations from a re-analysis of the deposited data

How the results depend on the processing

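The fall of the members between days 4 and 7 kept its direction under every alternative, with a median between -0.65 and -0.42. In either direction 32 to 54 members were called (45 by limma-voom on recovered reads), of which 28 to 47 fell (39 by limma-voom). Without 1 series at a time, 0 to 3 members were called for Smarcc1 knockdown against Nons (3 without Smarcc1.6), 0 to 1 for Smarca4 knockdown (0 without Smarca4.6), 7 to 26 between days 4 and 5, 4 to 24 between days 5 and 6, and 0 to 38 between days 6 and 7. The additive model of day called 31 members between days 4 and 5, 32 between days 5 and 6 and 49 between days 6 and 7. In these steps it called 47.8, 39.4 and 36.85% of all genes. For Smarcc1 knockdown against Nons it called 1 member (Mrps34) and 11.7% of all genes. Between the knockdowns it called 1 member (Mrps24) and 4.08% of all genes. Without the Smarca4.4 day 5 library these 2 members were called as well, 1 in each of the knockdown comparisons, and with no filter Mrps24 alone was called between the knockdowns (1 member). Between days 6 and 7, 49 members were called after median-gene centring, 50 after quantile normalization and 44 with a replicate block. The shares of all genes called were 27.7, 28.05 and 38.45%, against 27.5% without these changes. The cause was not tested. The replicate block took the series as a random effect (consensus correlation 0.217). Hairpin deviations correlated between days at 0.0233 to 0.823 for Smarcc1 (0.443 to 0.823 among days 5 to 7) and at -0.206 to 0.367 for Smarca4. Not every pair of days was above 0.1, so the numbers were not taken to pair libraries, though the Smarcc1 libraries of 1 hairpin were not independent over days 5 to 7, and the block moved no other count of members by over 1.5 times. Over the genes chosen by the naming rule, in the knockdown comparisons and day 7 against day 4, 1515 values kept their direction and side of the threshold, 30 no longer passed, 7 newly passed and 0 reversed. Genes named after their values were seen, neighbouring genes and values for single-day steps were not recomputed. Alternatives that leave out the Nons series gave no value for comparisons with Nons. With 1 Nons library per day, what sets Nons1 apart from the knockdowns cannot be told apart from that series.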
